A study of Mus musculus with 12 samples.

Results

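The genes described here are the ligands and receptors of vascular endothelial growth factor (VEGF) signaling in cultures of neonatal mouse cardiac fibroblasts that were turned toward induced endothelial cells (iECs) with *Sox17* and *Erg*. The 9 genes were taken by symbol, with no threshold on their values. They are the receptor genes *Kdr*, *Flt1* and *Flt4*, the neuropilin genes *Nrp1* and *Nrp2*, and the ligand genes *Vegfa*, *Vegfb*, *Vegfc* and *Pgf*. Each symbol matched 1 of the 35727 Ensembl genes in the deposited counts, and all 9 passed the filter on low counts that kept 15506 genes for testing. Bulk RNAseq was collected from *Sox17*-*Erg* cultures, which the labels call iEC, and from control cultures, which they call fibroblast. Both were collected 3 days, 7 days and 4 weeks after infection, with 2 libraries in each of the 6 groups and 12 libraries in all. The question of the design was when endothelial identity is gained, and each member was therefore compared between *Sox17*-*Erg* and control cultures at each time point.

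All groups share their source and medium. Hearts of newborn mice were pooled, cells carrying the fibroblast surface protein THY1 were selected, and retroviruses on the pMX backbone carried the factors. The study added a depletion of PECAM1-positive cells to its fibroblast isolation to limit carried-over endothelial cells, and the sources used here do not say whether these bulk cultures went through it. The names of the control columns begin with PMX, and the sources used here do not say more of what those cultures received. Every culture was grown in EGM2, an endothelial growth medium that is supplied with VEGF protein among other factors. Each culture is a mixture of converted and unconverted cells, so in these bulk samples fewer cells of a type and less RNA per cell cannot be told apart. Mice and cultures were pooled or not separately labelled, and the p-values measure the spread between these libraries, which may be technical.

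VEGF ligands are secreted proteins that bind receptor tyrosine kinases on endothelial cells. KDR (VEGFR2) carries most of the growth and migration signal of VEGF-A, FLT1 (VEGFR1) binds VEGF-A, VEGF-B and PGF tightly but signals weakly and also exists as a soluble decoy, and FLT4 (VEGFR3) receives VEGF-C and is best known from lymphatic vessels. Neuropilins are co-receptors that bind VEGF proteins as well as class 3 semaphorins. In the heart, endothelial cells are the main site of the receptors, while cardiomyocytes, fibroblasts and other neighboring cells supply much of the ligand.

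Libraries held between 19011635 and 41240449 counts on genes. The introduced factors had the labelled direction in every library. *Sox17* was between 432 and 1036 CPM, which are counts scaled for library size, in *Sox17*-*Erg* libraries and at most 0.416 in control libraries, and *Erg* was between 17.1 and 65.2 against at most 2.27. CPM values here are scaled by TMM factors, which correct for differences in RNA composition between libraries. Of the 10 endothelial marker genes listed, 9 could be tested. Beside 7.19%, 9.48% and 11.9% of all tested genes, 4, 5 and 7 of these markers were higher in the *Sox17*-*Erg* samples on Day 3, Day 7 and 4 weeks. Their summed level ran from 316 to 379.8 CPM, from 400.4 to 601 and from 603 to 761 with *Sox17*-*Erg*, and without it from 45.3 to 76.6, from 35.3 to 63.9 and from 22 to 29.0. No listed endothelial marker was at 0 in both libraries of a group, although *Cldn5*, which seals endothelial junctions, did not exceed 0.462 CPM anywhere. Control replicate 2 held more *Cdh5*, the endothelial cadherin, than control replicate 1, with 14.3 against 0.91 CPM on Day 3 and 8.08 against 0.23 on Day 7. Fibroblast markers remained abundant in every library.

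On Day 3, *Sox17*-*Erg* cultures had more *Kdr* and *Nrp1* and less *Nrp2* than control cultures. On Day 7, *Vegfa* and *Pgf* had joined the genes that were higher, and at 4 weeks *Kdr*, *Vegfa* and *Pgf* were higher while *Nrp2* and *Vegfc* were lower. *Kdr* was the 1 member called higher at all 3 time points, and *Flt1*, *Flt4* and *Vegfb* were called at none. These calls do not use the pairing of libraries by replicate number, and with that number as a block within each time point *Flt1* was called lower on Day 3 and 4 weeks, *Vegfb* and *Vegfc* on Day 3 and Day 7 and *Nrp2* on Day 7. That block also called more of all genes lower, with 10.4%, 13.3% and 15.5% at the 3 time points. Calls were made with the quasi-likelihood test of edgeR at an adjusted p under 0.05. Of the 9 members, 2 were higher and 1 was lower on Day 3, where 7.19% of all tested genes were higher and 5.13% lower. On Day 7, 4 members were higher against 9.48% of all genes, and 0 were lower against 7.93%. That 0 became 2 at an unadjusted p under 0.05, and DESeq2 called 2 lower beside 10.3% of all genes. At 4 weeks, 3 members were higher against 11.9% of all genes and 2 were lower against 11.0%. Over time, 3 members were higher and 1 was lower after 4 weeks than on Day 3 in control cultures, beside 13.9% and 12.6% of all genes, and 4 were higher and 1 was lower in *Sox17*-*Erg* cultures, beside 15.1% and 15.6%. The *Sox17*-*Erg* effect was larger after 4 weeks than on Day 3 for 2 members and smaller for 1, beside 2.22% and 0.987% of all genes.

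**Figure D1:**
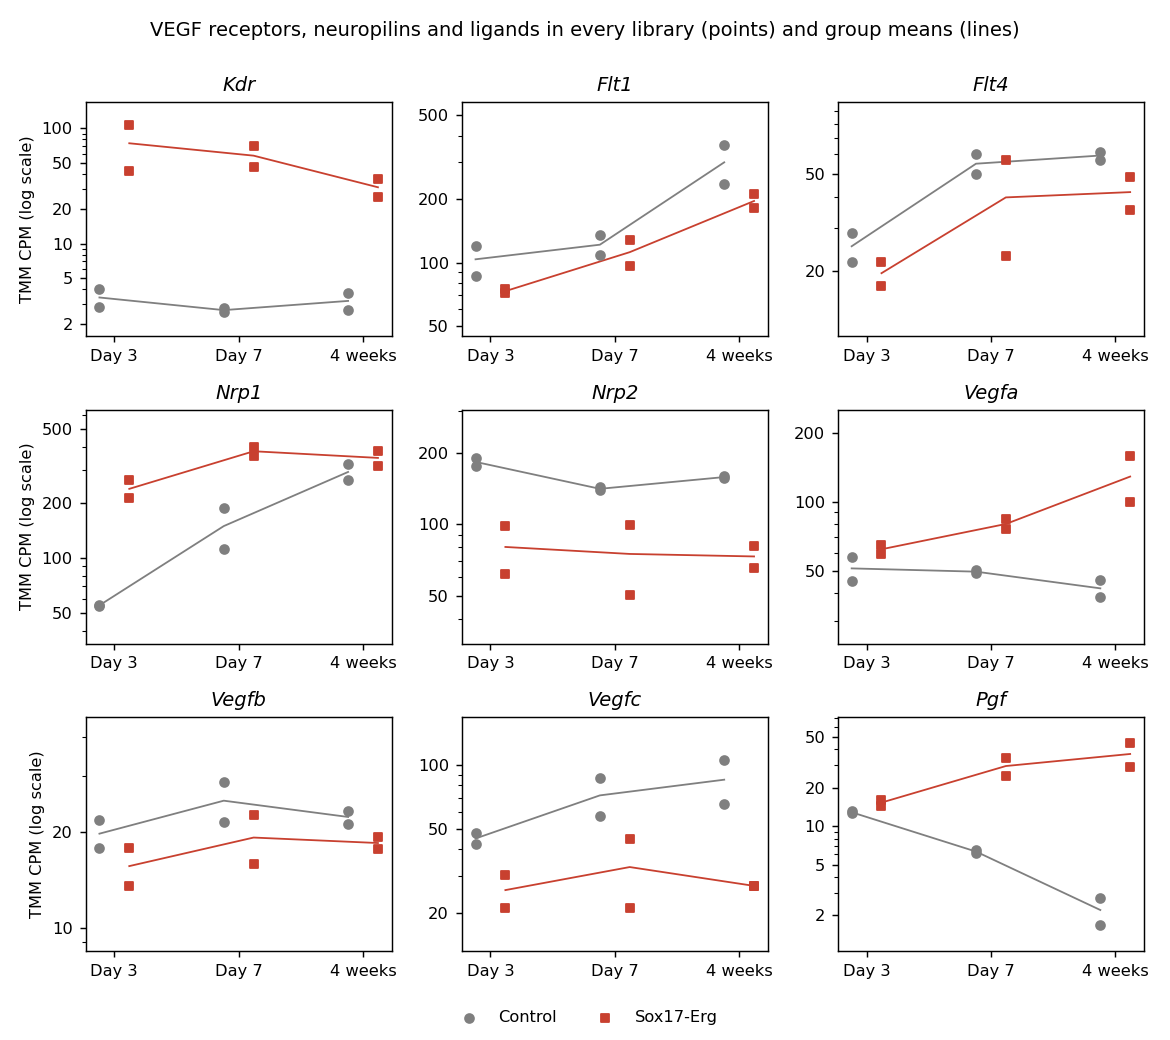
TMM-normalized CPM on a log scale for the 9 members on Day 3, Day 7 and 4 weeks, with 1 point per library (gray circles, control, and red squares, *Sox17*-*Erg*) and lines through the group means. The *Kdr* libraries of the 2 conditions lie far apart at all time points, from 2.53 to 4.0 CPM against 25.6 to 106, while *Pgf* starts nearly level and ends at 1.67 and 2.73 against 28.9 and 44.7.

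*Kdr* (ENSMUSG00000062960, chromosome 5, 75932827 to 75978458 on the minus strand of GRCm38) was low in every control library. It was 4.0 and 2.82 CPM in the control libraries on Day 3, 2.77 and 2.53 on Day 7, and 3.73 and 2.64 at 4 weeks. With *Sox17*-*Erg* it was 106 and 42.3 CPM on Day 3, 69.7 and 46.1 on Day 7, and 36 and 25.6 at 4 weeks. The lowest *Sox17*-*Erg* library thus lay above the highest control library at each time point, and the spread between replicates was widest on Day 3. The log2 fold changes over control were 4.43 (SE 0.47, adjusted p = 0.001), 4.45 (SE 0.47, adjusted p = 0.00047) and 3.26 (SE 0.44, adjusted p = 0.0011), which are 21.6-fold, 21.8-fold and 9.56-fold. All 12 fits that each left out 1 library kept these 3 calls. The log2 fold changes ran from 3.58 to 4.95 on Day 3, 4.12 to 4.67 on Day 7 and 2.98 to 3.54 at 4 weeks.

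Within the *Sox17*-*Erg* cultures, *Kdr* was lower at 4 weeks than on Day 3, with a log2 change of -1.27 (SE 0.40, adjusted p = 0.039). This *Kdr* call was lost in 8 of the 12 fits that left out a library, namely either control library of Day 3, either control library of Day 7, control replicate 2 of 4 weeks, *Sox17*-*Erg* replicate 1 of Day 3 and either *Sox17*-*Erg* library of 4 weeks. Without *Sox17*-*Erg* replicate 1 of Day 3, the library with the highest *Kdr*, the change was -0.40 (adjusted p = 0.43). The difference between the *Sox17*-*Erg* effects at 4 weeks and Day 3 was -1.17 (SE 0.60) and did not pass the test (adjusted p = 0.37). In the same cultures 2 of the 9 tested endothelial markers were higher at 4 weeks than on Day 3, 1 was lower and 6 were not called. Of all tested genes 15.1% were higher and 15.6% lower. The markers had a median log2 change of -0.25, while their summed CPM was higher. The part of endothelial cell content in the *Kdr* level was not tested.

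*Flt1* (ENSMUSG00000029648, chromosome 5, 147561604 to 147726011, minus strand) was well expressed in control cultures. The control libraries held 120.4 and 86.8 CPM of *Flt1* on Day 3, 135 and 108 on Day 7, and 236 and 361 at 4 weeks. In *Sox17*-*Erg* libraries there were 74.6 and 71.8 CPM on Day 3, 128 and 96.0 on Day 7, and 180.5 and 211 at 4 weeks. The libraries of the 2 conditions overlapped on Day 7 and not on Day 3 or 4 weeks, where both *Sox17*-*Erg* libraries were below both controls. None of the 3 log2 fold changes of *Flt1* passed the test, with -0.50 (SE 0.24, adjusted p = 0.2), -0.12 (SE 0.24, adjusted p = 0.77) and -0.61 (SE 0.24, adjusted p = 0.1). With the replicate number as a block within each time point, *Flt1* was lower on Day 3 (-0.48, adjusted p = 0.048) and at 4 weeks (-0.58, adjusted p = 0.019), and without control replicate 1 of 4 weeks the difference at 4 weeks was -0.88 (adjusted p = 0.049).

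*Flt1* rose with time in both conditions. From Day 3 to 4 weeks the rise was a log2 of 1.53 (SE 0.25, adjusted p = 0.003) in control cultures and 1.42 (SE 0.25, adjusted p = 0.0037) in *Sox17*-*Erg* cultures, and both calls held in all 12 fits that left out a library. In the same controls 1 endothelial marker was higher and 3 were lower at 4 weeks than on Day 3, beside 13.9% and 12.6% of all tested genes. Sums of these markers were at most 29.0 CPM at 4 weeks. Macrophage markers were uneven between the same libraries, with sums from 46.7 to 410.2 CPM in the controls at 4 weeks, and their part in the *Flt1* level was not tested. Gene counts do not separate the soluble form of *Flt1* from the membrane form.

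*Flt4* (ENSMUSG00000020357, chromosome 11, 49609263 to 49652739, plus strand) had a lower mean level per kilobase of exon than *Flt1* in each of the 6 groups. It was 21.8 and 28.6 CPM in the control libraries on Day 3, 60.0 and 49.8 on Day 7, and 57.1 and 61.5 at 4 weeks. With *Sox17*-*Erg* it was 17.3 and 21.8 CPM on Day 3, 22.9 and 57.0 on Day 7, and 48.4 and 35.6 at 4 weeks. The conditions overlapped on Day 3 and Day 7, and *Sox17*-*Erg* replicate 1 of Day 7 stood well below replicate 2. Log2 fold changes of *Flt4* were -0.36 (SE 0.36, adjusted p = 0.55), -0.46 (SE 0.36, adjusted p = 0.41) and -0.50 (SE 0.36, adjusted p = 0.36). Without *Sox17*-*Erg* replicate 2 of Day 7 the Day 7 difference of *Flt4* was -1.30 (adjusted p = 0.015), and without replicate 1 it was 0.06 (adjusted p = 0.95).

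*Flt4* also rose from Day 3 to 4 weeks, by 1.24 (SE 0.36, adjusted p = 0.034) in control and 1.10 (SE 0.36, adjusted p = 0.047) in *Sox17*-*Erg* cultures on the log2 scale. The control call for *Flt4* was lost without any of the 4 control libraries of Day 3 and 4 weeks (adjusted p up to 0.19). The *Sox17*-*Erg* call was lost in 10 of 12 fits, with the exception of those without either *Sox17*-*Erg* library of Day 7, and its change ran from 0.91 to 1.31. The 5 lymphatic endothelial markers, read because *Flt4* is best known from lymphatic vessels, summed to less in *Sox17*-*Erg* than in control libraries on Day 3 (59.4 to 68.5 CPM against 97.8 to 114) and Day 7 (63.8 to 79.1 against 92 to 109) and to more at 4 weeks (125 to 169.6 against 74.7 to 97.3). *Prox1*, a defining transcription factor of lymphatic endothelium, was called higher at all 3 time points and *Reln* on Day 7 and 4 weeks, while *Pdpn*, a membrane glycoprotein, was called lower on Day 3 and Day 7. Their part in the level of *Flt4* was not tested.

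Between genes, levels were compared per kilobase of exon sequence. On that scale *Flt1* exceeded *Kdr* in every control library, by 20.1 and 20.6 times on Day 3, 32.7 and 28.5 times on Day 7, and 42.2 and 91.4 times at 4 weeks. In *Sox17*-*Erg* libraries the ratio was 0.47 and 1.14 on Day 3, 1.22 and 1.39 on Day 7, and 3.35 and 5.51 at 4 weeks. The *Sox17*-*Erg* ratios therefore lay below the control ratios throughout and were higher at 4 weeks than at the earlier times, as *Flt1* rose and *Kdr* fell in those cultures.

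**Figure D2:**
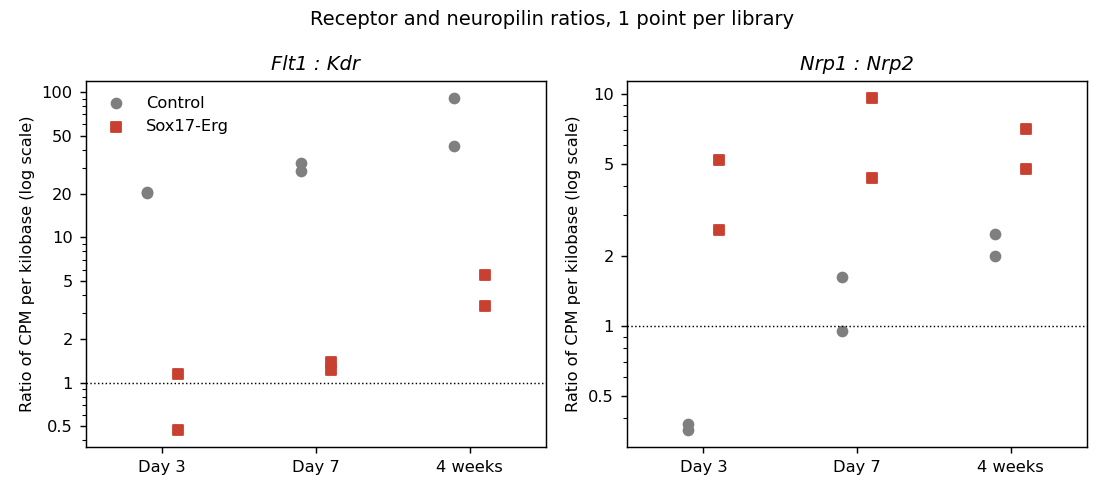
Ratio of the level per kilobase of *Flt1* to *Kdr* (left) and of *Nrp1* to *Nrp2* (right) on log scales, with 1 point per library (gray circles, control, and red squares, *Sox17*-*Erg*) and a dotted line at equal levels. *Flt1* to *Kdr* is between 20.1 and 91.4 in controls and between 0.47 and 5.51 in *Sox17*-*Erg* libraries, and *Nrp1* to *Nrp2* is between 0.355 and 2.5 in controls and between 2.59 and 9.64 in *Sox17*-*Erg* libraries.

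*Nrp1* (ENSMUSG00000025810, chromosome 8, 128358604 to 128503363, plus strand) encodes the neuropilin that binds VEGF-A and works with KDR. It was 54.7 and 55.8 CPM in the control libraries on Day 3, 112 and 186 on Day 7, and 323 and 264 at 4 weeks. With *Sox17*-*Erg* it was 264 and 211 CPM on Day 3, 401 and 359.7 on Day 7, and 317 and 383 at 4 weeks. *Nrp1* was clear of the controls on Day 3 and Day 7 and overlapped them at 4 weeks. Its log2 fold changes were 2.11 (SE 0.24, adjusted p = 0.0015), 1.35 (SE 0.23, adjusted p = 0.0052) and 0.25 (SE 0.23, adjusted p = 0.47), so that only the first 2 were called. With each time point fitted alone the Day 7 value was 1.33 and not called (adjusted p = 0.054).

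In the controls *Nrp1* rose by 2.41 on the log2 scale from Day 3 to 4 weeks (SE 0.24, adjusted p = 0.00048), against 0.56 in *Sox17*-*Erg* cultures (SE 0.23, adjusted p = 0.097). The *Sox17*-*Erg* effect on *Nrp1* was smaller at 4 weeks than on Day 3, with a difference of -1.85 (SE 0.33, adjusted p = 0.02). Leaving out either control library of Day 3, *Sox17*-*Erg* replicate 1 of Day 3, control replicate 1 of 4 weeks or *Sox17*-*Erg* replicate 1 of 4 weeks removed this *Nrp1* call, with values from -1.84 to -1.64 and adjusted p from 0.069 to 0.095.

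*Nrp2* (ENSMUSG00000025969, chromosome 1, 62703285 to 62818695, plus strand) encodes the neuropilin associated with VEGF-C, FLT4 and several semaphorins. The control libraries held 176 and 190.1 CPM on Day 3, 143 and 139 on Day 7, and 157 and 159 at 4 weeks. In *Sox17*-*Erg* libraries there were 61.7 and 98.8 CPM on Day 3, 50.3 and 99.7 on Day 7, and 81.0 and 65.4 at 4 weeks. Every *Sox17*-*Erg* library was below every control library. On the log2 scale the fold changes were -1.19 on Day 3 (SE 0.30, adjusted p = 0.036), -0.91 on Day 7 (SE 0.30, adjusted p = 0.067) and -1.11 at 4 weeks (SE 0.30, adjusted p = 0.028). On Day 7 *Nrp2* was called lower with the replicate number as a block within each time point (-0.99, adjusted p = 0.027), and without *Sox17*-*Erg* replicate 2 of Day 7 the difference was -1.53 (adjusted p = 0.0076).

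The Day 3 call of *Nrp2* was lost without control replicate 1 or 2 or *Sox17*-*Erg* replicate 1 of Day 3, control replicate 1 or 2 of 4 weeks or *Sox17*-*Erg* replicate 2 of 4 weeks, with values from -1.24 to -0.93 and adjusted p from 0.05 to 0.25. Its 4-week call was lost without control replicate 2 of Day 3 or any of the 4 libraries of 4 weeks, with values from -1.28 to -0.99 and adjusted p from 0.051 to 0.13. The direction of *Nrp2* was the same in all of these fits.

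Per kilobase, *Nrp1* was below *Nrp2* in the Day 3 controls, with ratios of 0.376 and 0.355, and near it on Day 7, with 0.95 and 1.62. At 4 weeks the control ratios were 2.5 and 2.01. *Nrp1* was the more abundant neuropilin in every *Sox17*-*Erg* library, with ratios of 5.18 and 2.59 on Day 3, 9.64 and 4.36 on Day 7, and 4.74 and 7.09 at 4 weeks. With the longest transcript of each gene as its length, all *Nrp1* ratios were higher, at 0.573 and 0.541 in the Day 3 controls and from 3.94 to 14.7 in *Sox17*-*Erg* libraries. In the Day 7 controls they were then 1.45 and 2.46, so that *Nrp1* exceeded *Nrp2* in both.

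ERG belongs to the ETS family of transcription factors, which bind DNA around a GGAA core, and SOX17 to the SOX family. RefSeq held promoter windows for all 9 members on GRCm38.p6, 11 windows in all since *Vegfa* and *Pgf* have a pair each. The windows span 250 bases before to 50 bases after a start. Both strands were searched for AGGAAG (an ETS site), ACAAT (a SOX core) and ACGTG (the core of hypoxia elements), and none of these 3 words overlapped another in the members. Across all 32851 windows, 35.4% held AGGAAG, 31.0% held ACAAT and 19.6% held ACGTG. *Flt1* had 2 matches to AGGAAG and *Nrp1* had 1, the second *Vegfa* window had 1 match to ACGTG, and the other 8 windows had no match to any of the 3 words. That second *Vegfa* window lies inside the gene, and the first, next to the annotated beginning of the gene, is among those without a match. No member window held ACAAT. The 250 bases before the start are shown for the receptor gene with the largest difference, for its partner with both ETS words, for the neuropilin gene that was higher early, and for the *Vegfa* window with a match. Capitals mark AGGAAG on the printed strand in *Flt1* and *Nrp1* and the reverse complement of ACGTG in *Vegfa*, and a match is a description of letters and not a binding site.
*Kdr*, chr5:75978456-75978705, minus strand: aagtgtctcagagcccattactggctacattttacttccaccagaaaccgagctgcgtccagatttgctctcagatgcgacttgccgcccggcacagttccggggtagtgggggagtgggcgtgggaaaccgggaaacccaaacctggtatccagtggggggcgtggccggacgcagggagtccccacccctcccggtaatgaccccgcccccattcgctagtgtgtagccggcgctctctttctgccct
*Flt1*, chr5:147726012-147726261, minus strand: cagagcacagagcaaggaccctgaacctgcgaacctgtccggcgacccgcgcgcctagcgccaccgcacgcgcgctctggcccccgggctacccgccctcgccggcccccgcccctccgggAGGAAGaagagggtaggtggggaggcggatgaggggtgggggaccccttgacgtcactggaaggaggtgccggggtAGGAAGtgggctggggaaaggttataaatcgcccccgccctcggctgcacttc
*Nrp1*, chr8:128358823-128359072, plus strand: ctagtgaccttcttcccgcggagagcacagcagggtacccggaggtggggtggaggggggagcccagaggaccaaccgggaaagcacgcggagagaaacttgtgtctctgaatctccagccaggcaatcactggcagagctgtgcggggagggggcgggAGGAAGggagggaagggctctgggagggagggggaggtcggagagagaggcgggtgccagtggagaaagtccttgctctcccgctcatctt
*Vegfa*, second window, chr17:46025164-46025413, minus strand: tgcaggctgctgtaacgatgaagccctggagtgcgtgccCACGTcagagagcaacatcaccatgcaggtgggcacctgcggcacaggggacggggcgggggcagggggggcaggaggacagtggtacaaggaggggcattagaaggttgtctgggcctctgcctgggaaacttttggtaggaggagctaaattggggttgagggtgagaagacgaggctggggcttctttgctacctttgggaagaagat

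The matches in *Flt1* end 124 and 48 bases before the start, and the match in *Nrp1* ends 86 bases before it. The *Vegfa* match ends 207 bases before the start of its window. *Kdr*, *Pgf*, *Nrp2* and *Vegfc*, all called at 1 or more time points, had none of the 3 words in their windows, which says only that these letters are not in those windows.

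*Vegfa* (ENSMUSG00000023951, chromosome 17, 46016993 to 46032369, minus strand), the main angiogenic ligand, drew apart with time. The control libraries held 44.9 and 57.4 CPM of *Vegfa* on Day 3, 50.2 and 48.8 on Day 7, and 38.4 and 45.3 at 4 weeks. In *Sox17*-*Erg* libraries there were 59.2 and 64.8 CPM on Day 3, 84.0 and 75.9 on Day 7, and 158 and 99.6 at 4 weeks. Both *Sox17*-*Erg* libraries were above both controls at each time, narrowly on Day 3. The fold changes on the log2 scale were 0.28 (SE 0.21, adjusted p = 0.41), 0.69 (SE 0.21, adjusted p = 0.048) and 1.62 (SE 0.21, adjusted p = 0.00081). The 4-week difference in *Vegfa*, which is 3.07-fold, held in all 12 fits that left out a library. The Day 7 call was at the threshold and was lost with the size factors of DESeq2 (adjusted p = 0.053), with 1 replicate block spanning all time points (0.69, adjusted p = 0.057) and in 10 of the 12 fits, all but those without a *Sox17*-*Erg* library of 4 weeks, with values from 0.62 to 0.72.

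Within the *Sox17*-*Erg* cultures *Vegfa* rose by 1.05 from Day 3 to 4 weeks on the log2 scale (SE 0.21, adjusted p = 0.0065), and in the controls its change was -0.29 (SE 0.21, adjusted p = 0.33). The effect was larger at 4 weeks than on Day 3 by 1.34 (SE 0.29, adjusted p = 0.044). That *Vegfa* difference kept its call in 1 of 12 fits, the one without *Sox17*-*Erg* replicate 2 of 4 weeks, and ran from 1.01 to 1.62 with adjusted p up to 0.14. It was also lost with 1 replicate block spanning all time points (1.34, adjusted p = 0.052).

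*Pgf* (ENSMUSG00000004791, chromosome 12, 85166635 to 85177790, minus strand) encodes placental growth factor, a ligand of FLT1. In control libraries it was 13.1 and 12.6 CPM on Day 3, 6.49 and 6.15 on Day 7, and 2.73 and 1.67 at 4 weeks. In *Sox17*-*Erg* libraries it was 16.1 and 14.5 CPM on Day 3, 24.8 and 34.4 on Day 7, and 44.7 and 28.9 at 4 weeks. The conditions were close on Day 3 and then moved apart in opposite directions. Log2 fold changes over control were 0.25 (SE 0.26, adjusted p = 0.56), 2.23 (SE 0.27, adjusted p = 0.00093) and 4.04 (SE 0.30, adjusted p = 3.8e-05), and the last is 16.4-fold. *Pgf* fell by 2.52 in the controls from Day 3 to 4 weeks on the log2 scale (SE 0.28, adjusted p = 0.00072) and rose by 1.26 in *Sox17*-*Erg* cultures (SE 0.26, adjusted p = 0.0074). The effect at 4 weeks exceeded that on Day 3 by 3.78 (SE 0.38, adjusted p = 0.003). The *Pgf* calls on Day 7 and 4 weeks, over time in each condition and in the difference of effects were kept in all 12 fits that left out a library.

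*Vegfc* (ENSMUSG00000031520, chromosome 8, 54077606 to 54187096, plus strand), the ligand of FLT4, went the other way. The control libraries held 42.2 and 47.7 CPM on Day 3, 57.3 and 86.3 on Day 7, and 105 and 65.3 at 4 weeks. The *Sox17*-*Erg* libraries held 21.1 and 30.2 CPM on Day 3, 21.2 and 44.7 on Day 7, and 26.9 and 26.8 at 4 weeks. No *Sox17*-*Erg* library reached the controls of its time point. The log2 fold changes of *Vegfc* were -0.81 (SE 0.36, adjusted p = 0.17), -1.13 (SE 0.36, adjusted p = 0.061) and -1.66 (SE 0.37, adjusted p = 0.011). With the replicate number as a block within each time point, *Vegfc* was also lower on Day 3 (-0.83, adjusted p = 0.025) and Day 7 (-1.19, adjusted p = 0.0054), and without *Sox17*-*Erg* replicate 2 of Day 7 the Day 7 value was -1.80 (adjusted p = 0.012).

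The 4-week *Vegfc* call was lost without control replicate 1 (-1.28, adjusted p = 0.076), *Sox17*-*Erg* replicate 1 (-1.67, adjusted p = 0.073) or *Sox17*-*Erg* replicate 2 of 4 weeks (-1.69, adjusted p = 0.057). Mesothelial markers, 5 in the list, were lower in the same *Sox17*-*Erg* cultures. At the 3 time points 1, 3 and 5 of 5 were called lower, beside 5.13%, 7.93% and 11.0% of all tested genes. Sums of these markers at 4 weeks were 868 to 1364 CPM in controls against 158 to 247. None of them was at 0 in both libraries of a group. Their part in the levels of *Vegfc* and *Nrp2* was not tested.

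*Vegfb* (ENSMUSG00000024962, chromosome 19, 6982473 to 6987651, minus strand), a ligand of FLT1 linked to the heart and fat metabolism, was the 1 ligand gene called at no time point. It was 17.8 and 21.8 CPM in the control libraries on Day 3, 21.5 and 28.8 on Day 7, and 23.4 and 21.3 at 4 weeks. With *Sox17*-*Erg* it was 13.5 and 17.8 CPM on Day 3, 15.9 and 22.6 on Day 7, and 19.3 and 17.7 at 4 weeks. The libraries met or overlapped on Day 3 and Day 7. As log2 fold changes the differences were -0.34 (SE 0.22, adjusted p = 0.34), -0.39 (SE 0.22, adjusted p = 0.25) and -0.27 (SE 0.22, adjusted p = 0.41). With the replicate number as a block within each time point *Vegfb* was called lower on Day 3 (-0.34, adjusted p = 0.048) and Day 7 (-0.39, adjusted p = 0.025).

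**Figure D3:**
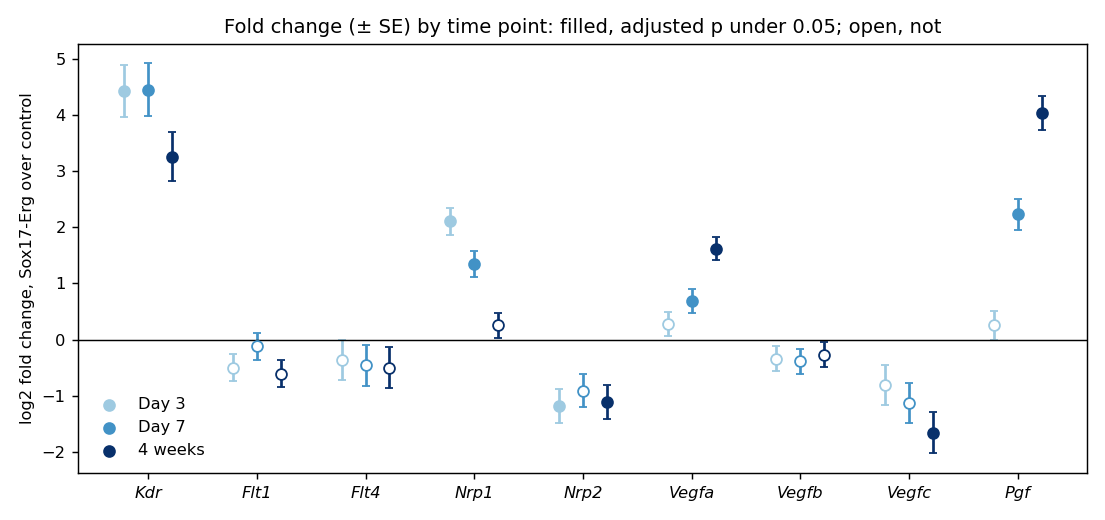
Log2 fold change of *Sox17*-*Erg* over control for each member (points) with its standard error (bars) on Day 3, Day 7 and 4 weeks, from light to dark blue. Filled points passed the edgeR test and open points did not, and *Kdr* and *Pgf* hold the largest values, 4.45 on Day 7 and 4.04 at 4 weeks.

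The mix of ligand transcripts, summed per kilobase over the ligand members *Vegfa*, *Vegfb*, *Vegfc* and *Pgf*, differed in its leading member. The sum leaves out *Vegfd*, a further ligand gene outside the members. In CPM, which is not scaled to length, *Vegfd* was above *Vegfc* in every control library, with 197 and 182 against 42.2 and 47.7 on Day 3. It was above *Vegfa* in *Sox17*-*Erg* replicate 2 of Day 7 (92.8 against 75.9) and below it in the rest of those libraries. Its share per kilobase was not computed. *Vegfc* held the largest share in every control library, from 38.3% and 39.8% on Day 3 to 52.2% and 63.6% at 4 weeks. *Vegfa* held the largest share in 5 of 6 *Sox17*-*Erg* libraries and reached 48.9% and 42.1% at 4 weeks. In the remaining library, replicate 2 of Day 7, *Vegfc* held 29.5% and *Vegfa* 28.6%. With the longest transcript as length *Vegfa* led there too, with 22 CPM per kilobase against 18.2 for *Vegfc*. *Pgf* went from 10.4% and 8.56% on Day 3 to 1.4% and 1.12% at 4 weeks in controls, and from 15.3% and 11.5% to 20.5% and 18.0% in *Sox17*-*Erg* libraries. *Vegfb* kept between 16.0% and 26.9% in all 12 libraries.

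**Figure D4:**
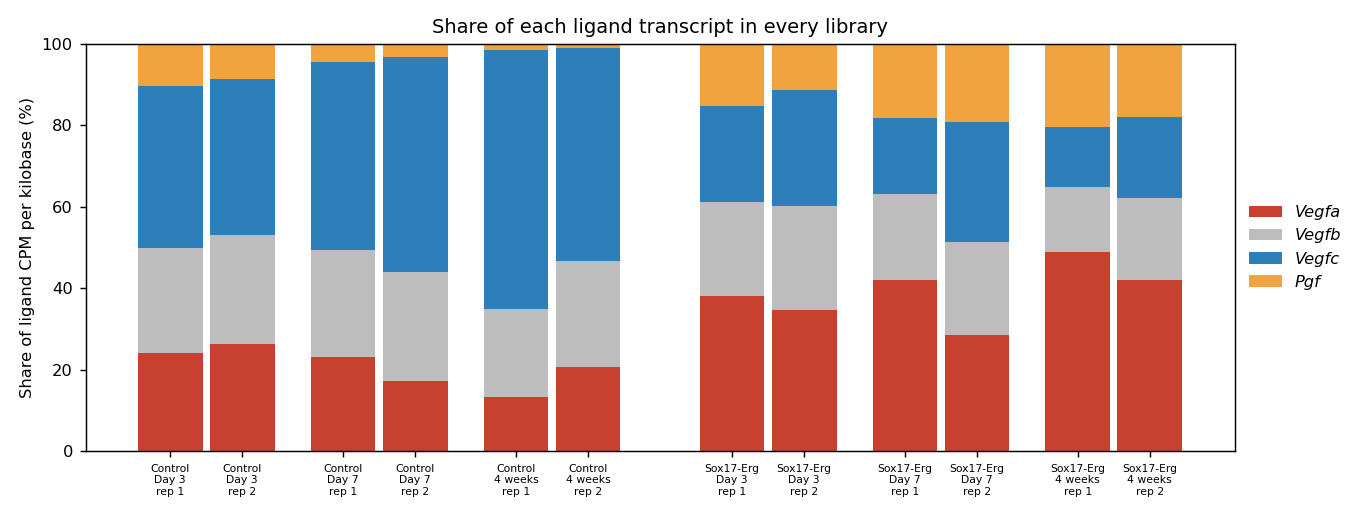
Share of each ligand in the summed ligand level per kilobase (percent) for each of the 12 libraries, with *Vegfa*, *Vegfb*, *Vegfc* and *Pgf* stacked from bottom to top. Of this sum, which leaves out *Vegfd*, *Vegfc* takes 52.2% and 63.6% in the control libraries at 4 weeks, and *Vegfa* 42.1% and 48.9% in the *Sox17*-*Erg* libraries.

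Ordered by mean level per kilobase, the Day 3 controls ran from *Vegfc* with 18.4 CPM per kilobase through *Nrp2*, *Vegfb*, *Vegfa*, *Flt1*, *Nrp1*, *Pgf* and *Flt4* to *Kdr* with 0.378. Of these neighbors the libraries of *Vegfb* and *Vegfa* overlapped. In the Day 3 *Sox17*-*Erg* cultures the order was *Nrp1* with 24.3, *Vegfa* with 14.5, then *Vegfc*, *Vegfb*, *Kdr*, *Nrp2*, *Flt1*, *Pgf* and *Flt4*, and all neighbors from *Vegfc* to *Pgf* overlapped. *Kdr* moved from the last to the fifth place between these orders.

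The Day 7 controls ran *Vegfc*, *Vegfb*, *Nrp1*, *Nrp2*, *Vegfa*, *Flt1*, *Flt4*, *Pgf*, *Kdr*, where *Nrp1* overlapped both of its neighbors. The Day 7 *Sox17*-*Erg* order was *Nrp1*, *Vegfa*, *Vegfc*, *Vegfb*, *Pgf*, *Flt1*, *Kdr*, *Nrp2*, *Flt4*, in which only *Nrp1* stood clear of its neighbor. At 4 weeks the controls ran *Vegfc*, *Nrp1*, *Flt1*, *Vegfb*, *Nrp2*, *Vegfa*, *Flt4*, *Pgf*, *Kdr*, with overlap of *Vegfc* with *Nrp1* and of *Vegfb* with *Nrp2*. The 4-week *Sox17*-*Erg* order was *Nrp1*, *Vegfa*, *Flt1*, *Pgf*, *Vegfb*, *Vegfc*, *Nrp2*, *Flt4*, *Kdr*, where *Nrp1* overlapped *Vegfa*, *Pgf* overlapped *Flt1* and *Vegfb*, and *Nrp2* overlapped *Flt4*. *Kdr* was thus last in all control groups and also last in the *Sox17*-*Erg* cultures at 4 weeks, with 3.41 CPM per kilobase (SD 0.814, n = 2). Lengths matter here, since with the longest transcript as length *Nrp1*, at 104 CPM per kilobase in the Day 7 *Sox17*-*Erg* cultures in place of 38.9, was first in 5 of the 6 groups.

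At 1 time point, where 2 libraries stand against 2, the smallest two-sided p that exact permutation allows is 0.33. Over the 3 time points together, with labels permuted within each, 216 permutations give a smallest p of 0.0093. *Kdr*, *Nrp2*, *Vegfa*, *Vegfc* and *Pgf* reached that smallest exact permutation p, which is 0.033 after Benjamini-Hochberg adjustment over all tested genes. Their mean *Sox17*-*Erg* minus control differences on the log2 scale were 3.97, -1.11, 0.85, -1.21 and 2.16. *Nrp1* had an exact permutation p of 0.019 (adjusted 0.051) and a mean difference of 1.25. *Flt1*, *Flt4* and *Vegfb* had an exact permutation p of 0.037 (adjusted 0.083), with mean differences of -0.40, -0.49 and -0.34. These permutations do not keep the pairing by replicate number. Swapping labels only within same-numbered pairs, an alternative added after the data were seen, allows 64 assignments, and 0.031 is then the smallest exact permutation p. All members but *Flt4* and *Nrp1* (0.062) had that p, and none passed the adjustment over all genes, with an adjusted permutation p of 0.077 at the lowest.

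The genes around this pathway were taken from 6 lists, whose counts stand beside the 7.19%, 9.48% and 11.9% of all tested genes that were higher and the 5.13%, 7.93% and 11.0% that were lower on Day 3, Day 7 and 4 weeks. In the first, of VEGF-C processing genes and the further ligand *Vegfd*, 8 of 8 genes were tested, and 0, 1 and 2 were higher and 1, 2 and 3 lower at the 3 time points. The 0 on Day 3 in the edgeR test stood beside 1 higher at an unadjusted p under 0.05 and 1 by DESeq2. *Vegfd*, which encodes VEGF-D and like VEGF-C binds FLT4, was 197 and 182 CPM in the Day 3 controls and 35.8 and 47.1 in the *Sox17*-*Erg* libraries, a log2 fold change of -2.19 (SE 0.42, adjusted p = 0.014), and it was again lower at 4 weeks by -1.65. *Ccbe1* and *Adamts3*, which together mature VEGF-C outside the cell, were lower on Day 7 (-2.37 and -2.77) and 4 weeks (-3.85 and -3.07). *Furin*, a proprotein convertase, was higher on Day 7 and 4 weeks (0.74 and 0.96), and *Pcsk5*, another, at 4 weeks (2.10). The list medians were -0.32, -0.27 and -0.07 on the log2 scale, where all genes had medians of 0.010, 0.006 and -0.014.

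Among 21 receptor partners, trafficking proteins and phosphatases, 4, 4 and 7 were higher and 2, 2 and 3 lower, with list medians of -0.10, 0.09 and 0.19. *Cdh5*, *Mcam*, *Ptprb* and *Efnb2* were the 4 genes higher at all time points. *Mcam*, a KDR-binding adhesion protein, was 378 and 331 CPM in the Day 3 *Sox17*-*Erg* libraries against 71.0 and 53.6, and its log2 fold changes were 2.51, 4.92 and 5.80. *Cdh5* encodes the VE-cadherin that associates with KDR, and *Ptprb* a phosphatase that acts on it. *Dab2*, an endocytic adaptor, was lower at all times (-1.08, -1.47 and -1.62), *Plxna2*, a plexin, on Day 3 (-0.87, adjusted p = 0.01), and *Plxna4*, another plexin that pairs with neuropilins, on Day 7 and 4 weeks (-2.12 and -2.21).

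Class 3 semaphorins, secreted guidance proteins that also bind neuropilins, were called in both directions. Of 7 genes 1 was higher at each time point and 2, 3 and 4 were lower, with list medians of -1.06, -1.25 and -1.78. The higher gene was *Sema3g* each time. *Sema3g* was 19.7 and 9.35 CPM on Day 3, 201 and 65.8 on Day 7, and 785 and 877 at 4 weeks in *Sox17*-*Erg* libraries, and no control library held more than 0.362. Its log2 fold changes were 5.64, 8.80 and 12.34 (adjusted p = 0.0024, 0.00014 and 2.2e-05). *Sema3f* was lower on Day 3 and Day 7 (-1.79 and -1.49) and *Sema3b* on Day 3 (-1.50). *Sema3c* and *Sema3a* were lower on Day 7 (-2.47 and -1.94) and 4 weeks (-3.81 and -1.78), and *Sema3e* at 4 weeks (-2.23).

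Of 44 signal transducers downstream of the receptors, 1, 8 and 8 were higher (2.27%, 18.2% and 18.2%) and 4, 2 and 4 lower (9.09%, 4.55% and 9.09%), with list medians of -0.03, 0.04 and 0.06. *Ptk2*, focal adhesion kinase, was higher on Day 3 (0.71, adjusted p = 0.0083) and Day 7 (0.67), and *Pik3cb* and *Prkca*, kinases of the PI3K and protein kinase C families, were higher on Day 7 (1.33 and 0.81) and 4 weeks (1.44 and 1.20). *Hspb1*, a small heat shock protein, was lower on Day 3 and 4 weeks (-0.84 and -0.95), *Nfatc1*, a transcription factor activated by calcineurin, on Day 3 (-0.85), *Akt2* on Day 7 and 4 weeks (-0.79 and -0.81) and *Shc1*, an adaptor, on Day 7 (-0.42).

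Of 24 genes that VEGF induces in endothelium, 2, 7 and 11 were higher and 4, 5 and 6 lower, with list medians of 0.49, 0.42 and 1.33 on the log2 scale. *Dll4*, a Notch ligand, had 0 counts in both 4-week controls and 83.4 and 94.9 CPM in *Sox17*-*Erg* libraries, at least 731-fold higher than a floor of 3 counts in a control library. *Egr3*, an early response factor, was higher on Day 7 and 4 weeks (3.42 and 4.25). *Esm1*, a marker of endothelial tip cells, and *Vcam1*, an adhesion molecule, were higher at all 3 time points (2.43, 2.63 and 1.87, and 0.87, 1.17 and 1.26). *Adamts9*, a secreted protease, was lower at all times (-1.78, -2.22 and -2.94), *Cd34*, a surface glycoprotein of endothelium and fibroblast progenitors, was also lower at all times (-2.58, -1.90 and -1.53), and *Apln*, a peptide hormone, was lower on Day 7 and 4 weeks (-1.80 and -2.25).

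Of 8 hypoxia regulators of *Vegfa*, edgeR called 0 on Day 3, where 1 had an unadjusted p under 0.05 and DESeq2 called 0. On Day 7, 1 was lower, and at 4 weeks 2 were higher and 1 was lower. *Epas1*, which encodes the hypoxia-inducible factor HIF-2 alpha of endothelium, was 2333 and 1768 CPM in the 4-week *Sox17*-*Erg* libraries against 822 and 929, a log2 fold change of 1.23 (SE 0.30, adjusted p = 0.018). *Hif1a* differed by 0.46 (SE 0.13, adjusted p = 0.033). *Egln3*, an oxygen sensor that marks HIF proteins for decay, was lower by -1.47 on Day 7 and -1.55 at 4 weeks. The list medians were 0.00, -0.01 and -0.14.

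Leaving out a library reduces its group to 1 library and lowers the number of calls over all genes as well. Of 66 calls of the pathway genes named by rule, 28 held in all 12 fits that left out a library and 38 were lost in 1 or more, with no change of direction. On Day 3, 14 of 15 calls were lost without *Sox17*-*Erg* replicate 1 and 13 without control replicate 1 of that day, and *Sema3g* alone held in all 12. Over all genes the 1115 higher and 795 lower calls of Day 3 became 206 and 66 in the first of these fits and 259 and 118 in the second. Calls could be lost at a like size of the difference, as those of *Mcam* (2.28 to 2.72) and *Esm1* (2.29 to 2.53) were on Day 3. *Cdh5* on Day 3 was lost in 9 fits and ran from 3.64 to 7.57. The Day 7 calls of *Ccbe1*, *Plxna4*, *Sema3f*, *Sema3a*, *Pik3cb*, *Prkca*, *Akt2*, *Shc1*, *Dll4*, *Egr3*, *Apln* and *Egln3* were lost without 1 or more of the Day 7 libraries, as were the 4-week calls of *Vegfd*, *Plxna4*, *Sema3a*, *Sema3e*, *Pik3cb*, *Akt2*, *Esm1*, *Cd34*, *Apln*, *Egln3*, *Epas1* and *Hif1a* without 1 or more of the 4-week libraries. *Hif1a* was lost in 4 fits, with values from 0.27 to 0.60 and adjusted p up to 0.23, and *Epas1* in 3, with values from 1.01 to 1.39 and adjusted p up to 0.11. *Vegfd* at 4 weeks ran from -2.06 to -1.05 (adjusted p up to 0.15). *Furin*, *Adamts3*, *Pcsk5*, *Sema3g* and *Sema3c* kept each of their calls. Sizes could still move, as *Adamts3* on Day 7 ran from -3.68 to -2.16 and *Ccbe1* at 4 weeks from -5.76 to -3.09.

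**Figure D5:**
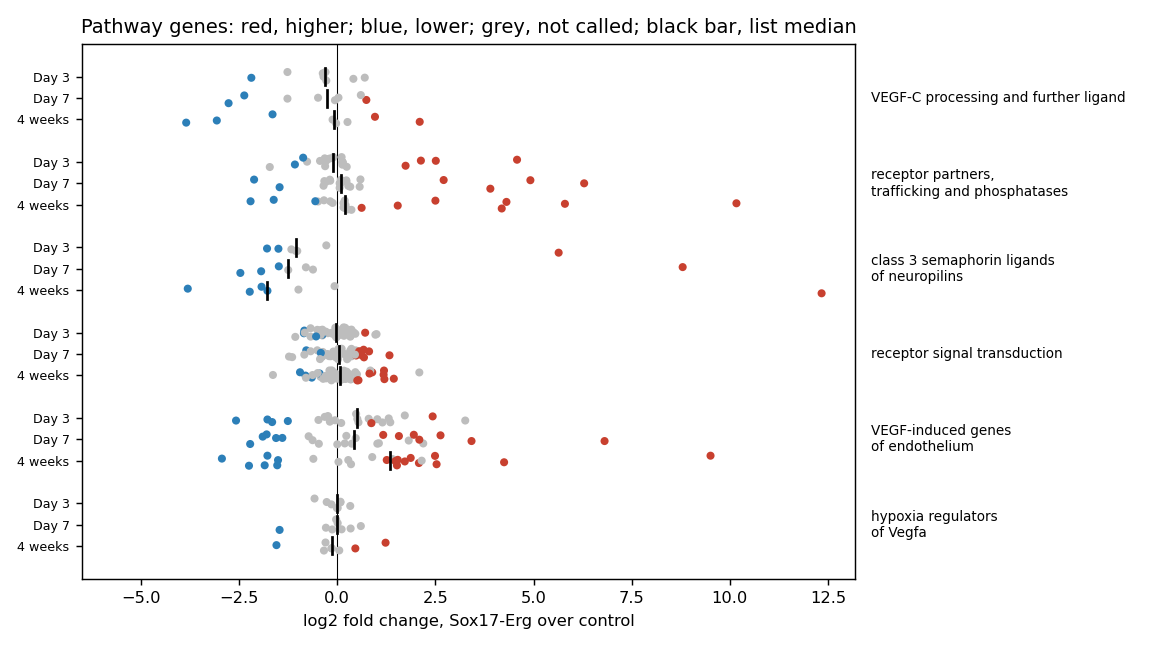
Log2 fold change of *Sox17*-*Erg* over control for each gene (points) of the 6 pathway lists on Day 3, Day 7 and 4 weeks, with red for higher, blue for lower, gray for not called and a black bar at the list median. *Dll4* at 4 weeks, with 0 control counts, is drawn at its lower bound, and the point farthest to the right is *Sema3g* at 12.34.

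The genes most like each member over the 12 libraries were named by Pearson correlation of log2 CPM among 15423 genes, as a description, since the libraries share conditions and time points. The choice of measure matters, since by Spearman correlation *Lama1* ranked 365 and *Tmprss5* 246 for *Kdr*, and *Synpo2* 474 and *Gbp5* 361 for *Flt4*, while *Kcne4* ranked 1 for *Vegfb*. *Kdr* was most like *Tirap*, *Lama1* and *Tmprss5* (r = 0.988, 0.988 and 0.986), *Flt1* like *Lrba*, *Alpk1* and *Pcdhb11* (0.962, 0.962 and 0.952) and *Flt4* like *Synpo2*, *Gbp5* and *Fmo2* (0.939, 0.938 and 0.936). *Nrp1* was most like *Igf1*, *Dio2* and *Zfp740* (0.978, 0.955 and 0.940) and *Nrp2* like *Pde1a*, *Pde9a* and *Cldn15* (0.972, 0.963 and 0.960). Among the ligands, *Vegfa* was most like *Ctnnb1*, *Mapk3* and *Arhgap42* (0.965, 0.963 and 0.957), *Vegfb* like *Kcne4*, *Rasa3* and *Col3a1* (0.967, 0.963 and 0.958), *Vegfc* like *Smoc2*, *Smarcd2* and *Nt5e* (0.979, 0.979 and 0.976) and *Pgf* like *March3*, *Parvb* and *Cacnb3* (0.976, 0.963 and 0.960). *Col3a1*, near *Vegfb* in this list, encodes a fibrillar collagen, and none of the genes named here was itself a member. Between members, r was highest for *Vegfb* with *Vegfc* (0.87) and *Vegfa* with *Pgf* (0.83) and lowest for *Kdr* with *Nrp2* (-0.90).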

How the data were processed

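Bulk RNAseq libraries were prepared by the authors from Trizol RNA with a stranded Kapa mRNA kit, demultiplexed with bcl2fastq 2.20.0, trimmed of high GC content by BBDuk and quantified by Salmon. What the authors deposited are estimated counts for each gene, whole numbers that are not normalized. The build is mm10 in the submitters' processing notes, and the Salmon version and annotation are not given in the sources used here. Symbols, positions and lengths came from GENCODE M21 (GRCm38), and promoter windows from RefSeq. The members do not share exons with other genes of GENCODE M21, except that *Nrp1* overlaps a microRNA by 80 bases.

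The edgeR 4.0.16 package of R 4.3.3 was used with TMM factors and filterByExpr (minimum count 10, minimum total 15). Its quasi-likelihood fit gave each group its own mean and left 6 residual degrees of freedom. Calls used a Benjamini-Hochberg adjusted p under 0.05 over 15506 genes. Permutation tests and correlations used log2 CPM with a prior count of 2. A floor of 3 counts per library covers counting error only. Alternatives were DESeq2 1.42.0, its size factors, other filters, a stricter threshold, single time points, the replicate number as a block, and leaving out each library. Deviations of same-numbered control and *Sox17*-*Erg* libraries from their group means correlated across genes by 0.186, 0.301 and 0.171 at the 3 time points, so the numbers, which come from the sample labels, were taken to pair libraries within a time point. Same-numbered libraries of a condition also correlated between Day 3 and Day 7, by 0.174 in control and 0.219 in *Sox17*-*Erg* cultures. With 4 weeks these correlations were between -0.11 and -0.049. The sources used here do not say what equal numbers share.

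Members and lists were chosen with earlier results of these data known. Named genes were the members, *Sox17*, *Erg*, the 2 most changed called genes per direction, list and time point, and the 3 genes most like each member. *Cldn5*, *Prox1*, *Reln*, *Pdpn*, *Ptprb* and *Efnb2* were named after their values were seen.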

Additional observations from a re-analysis of the deposited data

Results flagged for a closer look

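For 3 members the *Sox17*-*Erg* effect differed between 4 weeks and Day 3 by the interaction test of edgeR. The difference, as the log2 fold change at 4 weeks minus that at Day 3, was -1.85 for *Nrp1* (SE 0.33, adjusted p = 0.02), 1.34 for *Vegfa* (SE 0.29, adjusted p = 0.044) and 3.78 for *Pgf* (SE 0.38, adjusted p = 0.003). With 1 replicate block spanning all time points the call of *Vegfa* was lost (1.34, adjusted p = 0.052), and leaving out 1 library removed it in 11 of 12 fits. For *Nrp1* and *Pgf* the control cultures changed over time more than the *Sox17*-*Erg* cultures in size, with log2 changes of 2.41 against 0.56 for *Nrp1* and -2.52 against 1.26 for *Pgf*, and for *Vegfa* they changed less, with -0.29 against 1.05. Groups of 2 libraries are too small for a check of single libraries that stand apart.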

How the results depend on the processing

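Counts of members depended on the processing, and not only for genes near the threshold. Some calls added by the alternatives were near it in the main edgeR test, as *Vegfc* (adjusted p = 0.061) and *Nrp2* (0.067) on Day 7. Others were not, as *Vegfb* (0.34), *Flt1* (0.2) and *Vegfc* (0.17) on Day 3. At Day 3 the 1 member that was lower became 2 with no filter on low counts or with each time point fitted alone, 4 with the replicate number as a block within each time point, 3 with that block crossed at 4 weeks, an alternative added after the data were seen, and 0 at an adjusted p under 0.01. At Day 7 the 0 members that were lower became 2 with DESeq2, with no filter, with a replicate block over all libraries and with the crossed block, and 3 with the replicate block within each time point. The share of all genes that was lower moved as well. On Day 3 it went from 5.13% to 5.19% with no filter and 6.88% with each time point fitted alone. It was 10.4% there with the block within time points, 8.83% with the crossed block and 0.755% at an adjusted p under 0.01. On Day 7 it went from 7.93% to 10.3%, 6.73%, 9.42%, 11.1% and 13.3% with DESeq2, no filter, the block over all libraries, the crossed block and the block within time points. At 4 weeks the 2 that were lower became 0 at an adjusted p under 0.01, as did the 1 that fell in *Sox17*-*Erg* cultures over time. The shares of all genes that were lower went from 11.0% to 4.79% and from 15.6% to 6.42% in these comparisons. For the difference in effects, the 2 members that were higher became 1, with *Vegfa* lost, with a replicate block over all libraries and at an adjusted p under 0.01. All genes that were higher went from 2.22% to 2.63% and 0.561% in these fits. The 1 member that was lower became 2 with no filter and 0 at an adjusted p under 0.01, where all genes that were lower went from 0.987% to 1.74% and 0.232%. The replicate block changed no other count by over 1.5 times.

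Leaving out 1 library changed the number of members called in several comparisons. Such a fit leaves 1 library in a group and lowers the number of calls over all genes in the comparisons of that group. Its member counts are therefore not given. Differences that were not called changed sign in some of these fits. They were *Flt1* at Day 7 (-0.34 to 0.03), *Flt4* at Day 7 (-1.30 to 0.06), the changes over time of *Kdr* in controls (-0.37 to 0.19) and of *Nrp2* and *Vegfc* in *Sox17*-*Erg* cultures (-0.38 to 0.25 and -0.11 to 0.36), and the differences in effect of *Flt1* (-0.38 to 0.28), *Flt4* (-0.34 to 0.06), *Nrp2* (-0.18 to 0.46) and *Vegfb* (-0.08 to 0.28). Of 432 member values under the other alternatives 392 kept direction and side of the threshold, 13 lost their call, 27 gained one and 0 changed direction. Of the called values of the pathway genes, 46 of 594 were lost under the other alternatives and 121 of 792 when 1 library was left out. The cause was not tested. Each library held at least 19011635 counts, and the lowest value of a member was 41 counts in a library.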

Other observations

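Other marker lists were read in the same libraries, and their part in the levels of the VEGF genes was not tested. Of all tested genes, 7.19%, 9.48% and 11.9% were higher by edgeR and 5.13%, 7.93% and 11.0% lower at Day 3, Day 7 and 4 weeks. Of 7 mural cell markers, 2, 5 and 4 were higher in *Sox17*-*Erg* cultures than in controls and 0, 0 and 2 were lower at Day 3, Day 7 and 4 weeks by edgeR, and their summed level at 4 weeks was 3212 to 3522 CPM against 700.5 to 1555. Of 5 cell cycle markers, 0, 0 and 3 were higher by edgeR and 0, 0 and 4 by DESeq2, and 3, 0 and 4 had an unadjusted p under 0.05. Their sums were 857 to 1044 CPM against 314 to 391 on Day 3, 268 to 697 against 129 to 408 on Day 7 and 73.1 to 198 against 35.9 to 38.5 at 4 weeks. Of 7 cardiomyocyte markers, 2, 2 and 5 were lower. Of 10 fibroblast markers, 0, 1 and 1 were higher and 1, 3 and 4 lower, with sums at 4 weeks of 12824 to 13445 CPM against 16654 to 20226. The fibroblast sums overlapped on Day 3 (26448 to 42007 against 33009 to 40262) and Day 7 (32296 to 35508 against 24945 to 33242). Of 5 lymphatic markers, 1, 2 and 2 were higher and 1, 1 and 0 lower. Of 9 macrophage markers, edgeR and DESeq2 each called 0 at all 3 time points and 0 had an unadjusted p under 0.05. Their sum at Day 7 was 855 to 1264 CPM in control libraries and 259.9 to 432 in *Sox17*-*Erg* libraries. On Day 3 (280.5 to 424 against 281 to 313) and at 4 weeks (46.7 to 410.2 against 63.6 to 318) the macrophage sums overlapped.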
